A study of Mus musculus with 6 samples.

Results

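The heat shock proteins and their partner chaperones were examined in tumors grown from 4T1 cells, a mouse mammary carcinoma line, in BALB/c mice. Members were chosen by gene symbol alone: names that begin with Hsp and one of the letters a to e or h or a digit, with Dnaj, with Cct and a digit, or that consist of Hsf or Bag and 1 digit. Hspg2 was left out, because it encodes perlecan, a matrix proteoglycan. This gave 88 of the 16763 genes in the deposited table. A model group (3 libraries) carried tumors and is described with no agent, and a DMDD liposome group (3 libraries) carried the same tumors and received DMDD liposomes. The labels do not spell out DMDD, and give neither a dose, a time nor an age; all 6 samples are labelled male. Some labels call the animals rats, but the organism field, the strain and the gene symbols are those of mouse. The labels do not tie libraries to animals, and the p-values therefore describe spread between libraries. Whether this is spread between animals cannot be told from the labels. Libraries of the same group differed in tissue markers, with Krt5, for example, at 2, 1919 and 0 counts in the model libraries.

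Heat shock proteins bind proteins that are unfolded, newly made or aggregated. HSP70 proteins hold and release such clients in a cycle driven by ATP, J-domain proteins (the Dnaj genes) bring them clients and start ATP cleavage, and HSP110 and BAG proteins reset the cycle by exchanging the nucleotide. HSP90 finishes the folding of kinases and steroid receptors, the ring-shaped CCT chaperonin folds actin and tubulin, and small heat shock proteins keep unfolded proteins soluble. Each compartment has its own set: Hspa5 (BiP) and Hsp90b1 (GRP94) work in the endoplasmic reticulum (ER), and Hspa9 (mortalin), Hspd1 (HSP60) and Hspe1 (HSP10) in mitochondria. Heat shock factor 1 drives the cytosolic genes through heat shock elements, and the unfolded protein response drives the ER genes through ER stress elements. Tumor cells are known to depend on both systems.

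RefSeq promoter windows (build GRCm38.p6, 250 bases before to 50 after the start, 300 in all) were matched by symbol for 70 of the 88 members. They were searched on both strands for the ER stress element (CCAAT, then 9 bases of any kind, then CCACG), for the heat shock element pairs GAANNTTC and TTCNNGAA, and for TATAAA. The ER stress element was found in 3 of the 70 matched members (4.29%), against 0.137% of all genes in the promoter table. These were Hspa5, Hsp90b1 and Dnajc3, all of the ER (11 ER members were matched). Their sites are shown because these genes are compared below, with the match in capitals and 5 flanking bases on each side. Hspa5 (chr2:34772020-34772048, plus strand) holds it 65 to 47 bases before the start. The printed Hspa5 stretch overlaps 1 annotated exon. Hsp90b1 has a forward match (chr10:86705633-86705661, minus strand) and a match read on the opposite strand (chr10:86705528-86705556). Dnajc3 lies at chr14:118937822-118937850, plus strand.
Hspa5: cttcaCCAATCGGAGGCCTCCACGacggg
Hsp90b1, forward: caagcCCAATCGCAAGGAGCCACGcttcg
Hsp90b1, opposite strand: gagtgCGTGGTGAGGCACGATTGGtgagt
Dnajc3: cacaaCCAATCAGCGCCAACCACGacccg

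GAANNTTC was found in 15 of the 70 matched members (21.4%), against 9.04% of all genes, and TTCNNGAA in 8 (11.4%), against 9.6%. A heat shock element of at least 3 alternating units (GAANNTTC followed by NNGAA, or TTCNNGAA followed by NNTTC), searched after the other motifs had been seen and overlapping with them, was found in 4 members (Dnajb6, Hspd1, Hspe1 and Hsph1; 5.71%), against 0.662% of all genes. TATAAA was found in 4 members (5.71%), against 15.7% of all genes. Hspd1 and Hspe1 are neighbours that point away from each other, so both windows hold the same stretch (chr1:55088053-55088082), printed here on the strand of each gene. This stretch overlaps 1 annotated exon. The Hsph1 site (chr5:149636282-149636306, minus strand) lies just after the start, in transcribed sequence. Hspa1a (chr17:34972242-34972271, minus strand) and Hspa1b (chr17:34959324-34959353, minus strand) hold the same letters at the same place, and their 250 bases before the start match at 247 positions. The Dnajb4 site is at chr3:152193846-152193865, minus strand. Capitals mark the heat shock units, with the bases between them.
Hspe1: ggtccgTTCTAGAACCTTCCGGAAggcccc
Hspd1: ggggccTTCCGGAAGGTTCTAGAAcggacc
Hsph1: tgcagaTTCTGGAAAGTTCtcctca
Hspa1a: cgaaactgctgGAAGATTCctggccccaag
Hspa1b: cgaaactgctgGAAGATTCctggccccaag
Dnajb4: tcgctgTTCTAGAAagtaca
A match describes the letters only; binding was not measured.

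The 6 libraries held 13037500 to 15616840 counts and 14953 to 15409 detected genes, and 3 counts, the limit that a count of 0 allows for counting error only, corresponded to 0.193 to 0.230 CPM. CPM are counts scaled to library size with TMM factors. Of all 12891 genes tested, 0 (0%) passed an adjusted p of 0.05 in edgeR's quasi-likelihood test, and the smallest adjusted p was 0.603; DESeq2 called 59 of 14461 (0.408%). Model replicate 1 stood apart from its group. On the first principal component it scored -14.02, beside -28.55, -11.40 and -19.03 in the DMDD liposome libraries and away from 32.09 and 40.91 in the other model libraries. Of the tested members, 44 of 81 (54.3%) lay nearer to the DMDD liposome mean than to the mean of the other model libraries in it, against 62.4% of all genes. Without it, edgeR called 112 of 13159 genes (0.851%) and 0 members, with 8 members at an unadjusted p under 0.05, against 16.3% of genes. These are bulk tumor samples, in which fewer cells of a type and less RNA per cell cannot be told apart. Summed macrophage markers were 2231 to 3651 CPM in the model libraries and 4060 to 4879 CPM in the DMDD liposome libraries (15 of 15 genes in the table, none at 0). By edgeR's fold change, 13 of the 15 were higher in DMDD liposome, while Mrc1 and Cd163 were lower. Summed epithelial markers were 4486 to 7414 CPM in model against 4073 to 5093 CPM in DMDD liposome (14 of 14 genes, none at 0). Of these 14, 2 were higher in DMDD liposome, Krt7 and Cldn4. Summed epidermal keratinocyte markers were 405 CPM in model replicate 2 and 28.8 to 41.8 CPM in the other libraries, where 5 to 7 of the 12 genes were at 0. The part of such differences in the chaperone values was not tested.

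Chaperone mRNA was abundant and nearly constant in total. The 88 members together took 1.46% to 1.59% of all counts, with summed levels of 15005, 15024 and 15001 CPM in the model libraries and 15461, 15264 and 15102 CPM in the DMDD liposome libraries. The DMDD liposome libraries were thus all above the model libraries, by 1.02 times in the means (15010 ± 12.2 against 15276 ± 180, SD, n = 3 each). Compared per transcript length, Hsp90ab1 stood first with a mean of 1636 FPKM (fragments scaled for gene length and library size), followed by Hspa5 at 465, Hsp90b1 at 417, Cct5 at 308, Cct2 at 238 and Hspa8 at 230 FPKM. In all, 15 members had a mean above 100 FPKM. At the other end, 6 members had a count of 0 in at least 1 library.

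**Figure D1:**
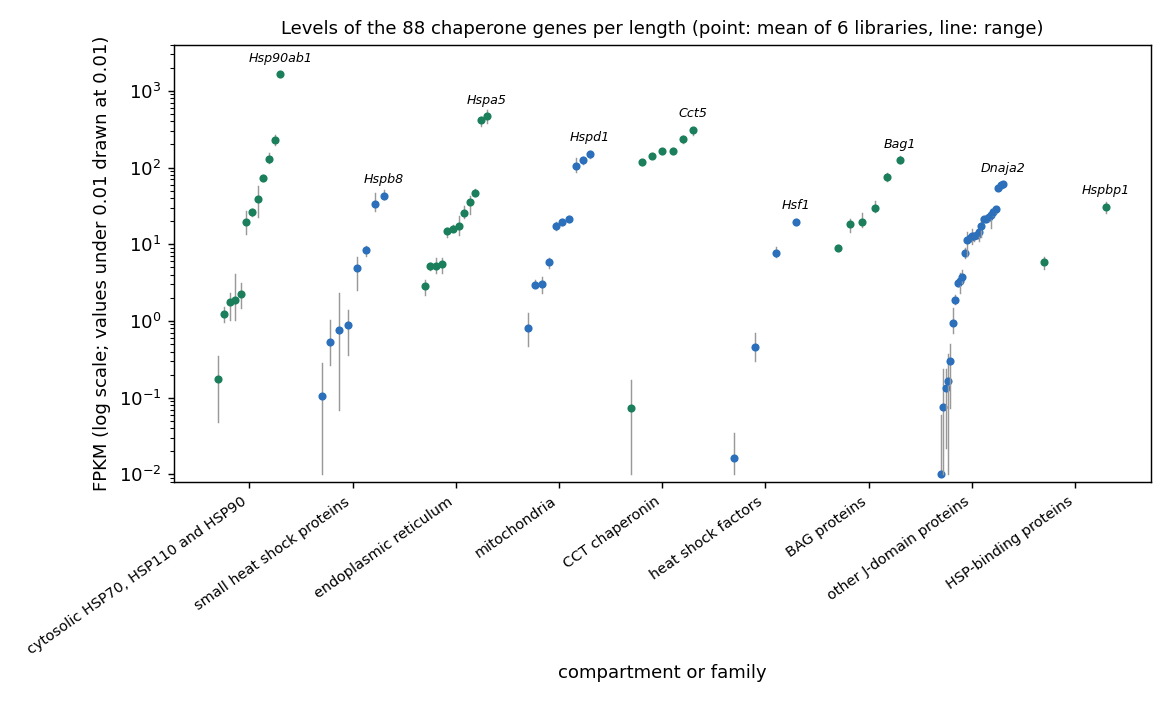
Deposited FPKM of the 88 members on a log axis, grouped by compartment or family; each point is the mean of the 6 libraries and each line the range. Hsp90ab1 (1636 FPKM), Hspa5 (465) and Cct5 (308) lead their classes, and the 6 tested CCT genes lie between 117 and 308 FPKM, with Cct6b far below.

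Of the 88 members, 81 passed the filter on low counts and were tested, and 0 of these were called between DMDD liposome and model (edgeR's quasi-likelihood test, Benjamini-Hochberg over all 12891 genes; smallest adjusted p 0.626). DESeq2 called 0 members as well, and the authors' deposited table also lists 0, with Hspb7 at the smallest adjusted p, 0.339. At an unadjusted p under 0.05 there were 6 members (7.41%), against 7.65% of all genes. None was lower in the DMDD liposome libraries, against 3.31% of all genes, and all 6 were higher, against 4.34%: Hsph1, Dnajb9, Dnajb4, Dnajc18, Dnajb13 and Hspb7. DESeq2 had 6 members at an unadjusted p under 0.05 too, with Hspa5 in place of Dnajb13. The log2 fold changes (DMDD liposome over model throughout) were above 0 for 48 members and below 0 for 33, with a median of 0.04 against 0.01 for all genes. They stayed within 0.25 of 0 for 60 of 81 members, where 67.9% of all genes did. The groups did not overlap for 13 of 81 members (16%), 8 of them higher and 5 lower in DMDD liposome, against 12.9% of all genes (7.21% higher, 5.66% lower).

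**Figure D2:**
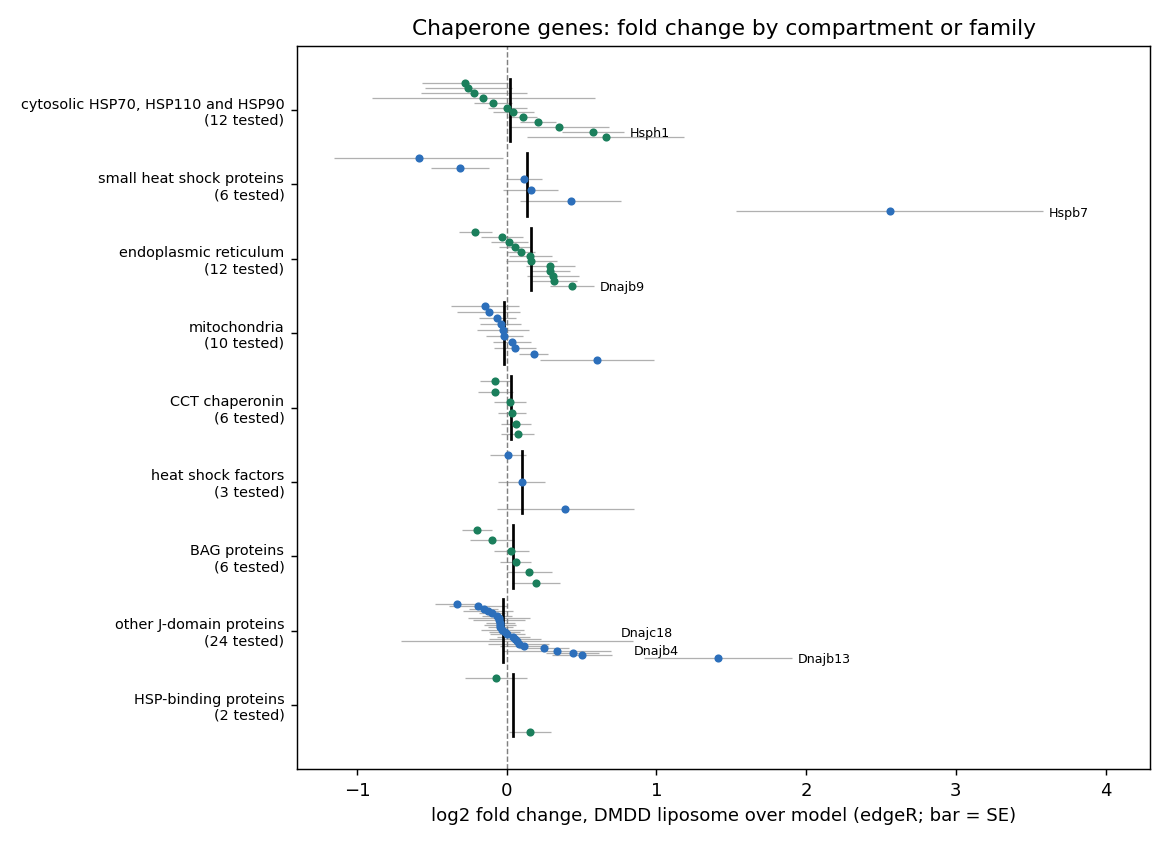
Log2 fold change (DMDD liposome over model, edgeR) of each tested member with its standard error, by compartment or family; the black line is the class median. The ER median (0.16) and the small heat shock protein median (0.14) lie above the mitochondrial (-0.02) and CCT (0.03) medians, and the 6 members named on the plot had an unadjusted p under 0.05 but none passed adjustment.

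In the cytosol, 1 of the 12 genes of the HSP70, HSP110 and HSP90 class (8.33%), Hsph1, had an unadjusted p under 0.05. This compares with 7.65% of all genes, and edgeR called 0 of the class. The class median was 0.02, with 7 genes above 0 and 5 below. Its summed level was 5869, 5751 and 5761 CPM in the model libraries and 5704, 5657 and 5590 CPM in the DMDD liposome libraries, and Hsp90ab1 made up 72.1% of it. The groups did not overlap in this sum, but the ratio of the means was 0.975.

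Hsp90ab1, the constitutive HSP90, measured 4350, 4286 and 4137 CPM in the model libraries and 4038, 3849 and 4085 CPM in the DMDD liposome libraries. Every DMDD liposome library was below every model library, by little: the log2 fold change was -0.09 ± 0.13 (SE; edgeR adjusted p = 0.875). Hsp90aa1, the stress-inducible HSP90, measured 442, 392 and 401 CPM in model and 466, 532 and 428 CPM in DMDD liposome. Its groups overlapped through DMDD liposome replicate 3, with a log2 fold change of 0.21 ± 0.12 (edgeR adjusted p = 0.713). Put as a ratio of FPKM within a library, Hsp90aa1 over Hsp90ab1 was 0.0758, 0.0682 and 0.0722 in model and 0.0860, 0.103 and 0.0781 in DMDD liposome, so the inducible form took a larger share in each DMDD liposome library. This ratio was picked after the values were seen and has no test. The transcripts of the pair share no window of 50 identical bases, at 76.7% identity over 2154 aligned bases, so a 50-base read would differ between them.

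Hsph1 encodes HSP110, a nucleotide exchange factor of HSP70. It measured 57.7, 56.7 and 85.2 CPM in the model libraries and 112, 108 and 76.9 CPM in the DMDD liposome libraries. Model replicate 3 and DMDD liposome replicate 3 crossed over, so the groups overlapped. The means were 66.6 ± 16.2 and 99.2 ± 19.4 CPM (SD, n = 3 each), a 1.49-fold difference with a log2 fold change of 0.58 ± 0.21 (edgeR unadjusted p = 0.0259, adjusted p = 0.626). Hspa4, another HSP110-type exchange factor, measured 337, 328 and 318 CPM in model and 345, 374 and 339 CPM in DMDD liposome. Its groups stood apart by a small step, with a log2 fold change of 0.11 ± 0.10 (edgeR adjusted p = 0.816). Hspa8, the constitutive HSP70, ran from 474 to 619 CPM in model and from 514 to 612 CPM in DMDD liposome (log2 fold change 0.04 ± 0.14).

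The inducible HSP70 pair, Hspa1a and Hspa1b, varied more between libraries than between groups. Their transcripts are 99.1% identical over 2210 aligned bases, and 58.8% of the 2918 windows of 50 bases in Hspa1a occur in Hspa1b unchanged, so the split of reads between them is uncertain and their sum is the safer quantity. Hspa1b measured 142, 83.8 and 132 CPM in model and 61.6, 161 and 84.6 CPM in DMDD liposome, with both the lowest and the highest library in the DMDD liposome group (log2 fold change -0.22 ± 0.36, edgeR adjusted p = 0.894). Hspa1a had 85, 48 and 52 counts in model and 64, 164 and 54 counts in DMDD liposome, where replicate 2 alone was high. Its log2 fold change of 0.66 ± 0.53 (edgeR adjusted p = 0.790) became -0.08 without that library. Hspa1a held 2.53% to 4.39% of the reads of the pair in model and 4.17% to 7.14% in DMDD liposome.

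The summed level of Hspa1a and Hspa1b was 149, 86.9 and 135 CPM in model and 66.1, 173 and 88.3 CPM in DMDD liposome. The summed level of 13 immediate early genes, among them Fos and Egr1, which respond within minutes to handling of tissue, was 2413, 1456 and 1788 CPM in model and 880, 2765 and 1501 CPM in DMDD liposome. The order of the 6 libraries was the same in both sums, from DMDD liposome replicate 2 at the top to DMDD liposome replicate 1 at the bottom. Single genes did not all keep this order. Junb, which led the immediate early sum at 33.9%, was highest in model replicate 1 (748 CPM), while Fos and Egr1 were highest in DMDD liposome replicate 2. The likeness of the 2 sums was noticed in the values and its part in the result was not tested. Of the 14 immediate early genes listed, 13 were in the table and at most 1 of them was at 0 in any library.

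**Figure D3:**
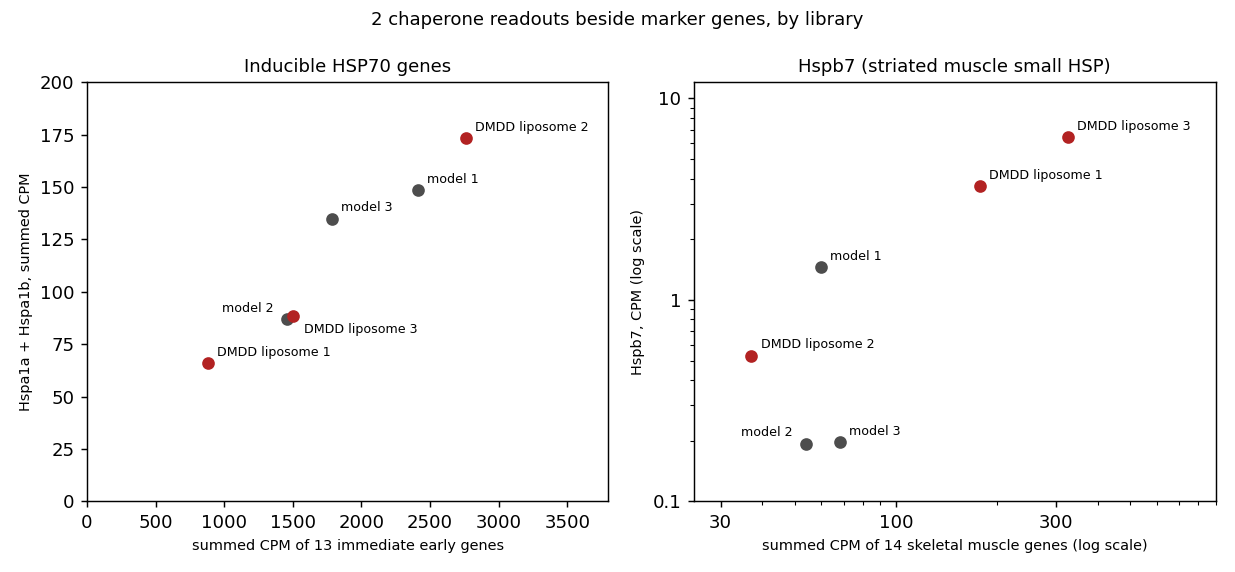
Left, summed CPM of Hspa1a and Hspa1b against the summed CPM of 13 immediate early genes; right, Hspb7 against the summed CPM of 14 skeletal muscle genes, both on log axes; each point is a library. The left points keep 1 order on both axes, from DMDD liposome 1 (66.1 and 880 CPM) to DMDD liposome 2 (173 and 2765 CPM), and the highest Hspb7 values, in DMDD liposome 3 and 1, are in the libraries with the most muscle mRNA.

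Other members of the cytosolic class were low or flat. Hspa14, a ribosome-linked HSP70, had a log2 fold change of 0.00 ± 0.13. Hspa2 and Hspa1l, forms best known from the testis, had values of -0.28 ± 0.29 and -0.26 ± 0.29, at mean levels of 2.28 and 1.22 FPKM. Hspa12b, an endothelial HSP70 relative, measured 8.59, 4.58 and 3.87 CPM in model and 6.94, 8.08 and 6.68 CPM in DMDD liposome. Model replicate 1 was the highest of the 6 libraries, and the log2 fold change of 0.35 ± 0.33 was 0.77 without it (edgeR adjusted p = 0.207). Summed endothelial markers had the same outlying model library, at 375, 199 and 221 CPM in model and 314, 418 and 290 CPM in DMDD liposome (10 of 10 genes in the table, none at 0; their part was not tested). Hspa12a had 0.173 FPKM. The 23 cytosolic co-chaperones outside the symbol rule include the CCT subunit Tcp1 and the small heat shock protein Cryab. Of these 23, 10 were above 0 and 13 below, with a median of -0.02. EdgeR called 0, and 1 gene (4.35%) had an unadjusted p under 0.05, against 7.65% of all genes. This was Chordc1, an HSP90 co-chaperone, which measured 79.5, 80.0 and 88.8 CPM in model and 116, 99.9 and 92.8 CPM in DMDD liposome, with no overlap (log2 fold change 0.32 ± 0.12, edgeR unadjusted p = 0.0276, adjusted p = 0.626). Fkbp4, an HSP90-bound immunophilin, had a value of 0.20 ± 0.13 (edgeR adjusted p = 0.735).

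Small heat shock proteins gave the largest fold change of any member, in a gene with few reads. Of 8 genes, 6 were tested, 4 above 0 and 2 below, with a median of 0.14. Hspb7, a small heat shock protein of heart and skeletal muscle, had 19, 3 and 3 counts in model and 52, 7 and 94 counts in DMDD liposome. DMDD liposome replicate 2, at 7 counts, lay below model replicate 1, so the groups overlapped. The means were 0.616 ± 0.728 and 3.54 ± 2.94 CPM (SD, n = 3 each), with a log2 fold change of 2.56 ± 1.03 (edgeR unadjusted p = 0.0392, adjusted p = 0.639).

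As a sum, skeletal muscle markers were highest in the libraries highest in Hspb7. Their summed level was 59.7, 54.0 and 68.1 CPM in model and 178, 37.1 and 326 CPM in DMDD liposome, for the 14 of 15 listed genes in the table, of which 0 to 2 were at 0 in a library. These libraries were DMDD liposome replicates 3 and 1; the orders differed below them, with DMDD liposome replicate 2 lowest in muscle mRNA but not in Hspb7. Single markers differed: Acta1 and Ckm were highest in DMDD liposome replicates 3 and 1, but Myh1 and Tnni2 were highest in model replicate 3. The part of muscle in the Hspb7 value was not tested. Without model replicate 1, the log2 fold change of Hspb7 was 4.13 (edgeR adjusted p = 0.150), and DESeq2, in a run added after the data were seen, gave 4.18 with an adjusted p of 0.00460. Model replicate 1 held the most Hspb7 counts of the model libraries (19, against 3 and 3), so leaving it out widens the gap by construction. Over all genes, leaving it out raised the share at an unadjusted p under 0.05 in edgeR from 7.65% to 16.3%.

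Most reads of the Hspb genes in this class came from Hspb8. Hspb8, which works with Bag3 in the removal of misfolded proteins, made up 65.3% of the class and measured 79.0, 72.5 and 72.4 CPM in model and 75.1, 93.4 and 74.5 CPM in DMDD liposome (log2 fold change 0.12 ± 0.12). Hspb1 (HSP25 in mouse) was low, at 5.14, 5.22 and 2.69 CPM in model and 5.88, 7.18 and 4.50 CPM in DMDD liposome, with overlap (0.43 ± 0.34, edgeR unadjusted p = 0.242). Hspb11, named as a small heat shock protein but part of the intraflagellar transport machinery, measured 18.5, 29.99 and 23.6 CPM in model and 19.7, 17.4 and 20.9 CPM in DMDD liposome (-0.31 ± 0.19, edgeR unadjusted p = 0.151). Hspb6 and Hspb2, both muscle forms, had values of 0.16 ± 0.18 and -0.59 ± 0.56. Hspb3 and Hspb9 had at most 3 and 10 counts in a library and were not tested.

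The ER chaperones had the highest class median among the 3 compartments, 0.16 (1.12-fold), with 10 of 12 genes above 0. No gene of this class was called in edgeR's test, and 1 (Dnajb9, 8.33%) had an unadjusted p under 0.05, against 7.65% of all genes. The groups did not overlap for 4 of 12 (33.3%), 3 higher and 1 lower in DMDD liposome, against 12.9% of all genes. Dnajc18, a membrane-anchored J-domain gene described below, was counted outside this class. Summed ER levels were 3332, 3344 and 3732 CPM in the model libraries and 4099, 3658 and 3882 CPM in the DMDD liposome libraries. Model replicate 3 lay above DMDD liposome replicate 2, so the sums overlapped, with means of 3469 ± 227 and 3880 ± 220 CPM. The class median was 0.10 without model replicate 2 and 0.10 without DMDD liposome replicate 2.

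Hspa5 encodes BiP, the HSP70 of the ER and the sensor-bound regulator of the unfolded protein response. It had 21094, 22124 and 25277 counts in model and 29010, 22892 and 28987 counts in DMDD liposome, or 1617, 1427 and 1660 CPM against 2055, 1729 and 1975 CPM. Every DMDD liposome library was above every model library, with the narrowest step between model replicate 3 and DMDD liposome replicate 2. The means were 1568 ± 124 and 1920 ± 170 CPM (SD, n = 3 each), with a log2 fold change of 0.29 ± 0.13 (edgeR unadjusted p = 0.0607, adjusted p = 0.645; unadjusted p = 0.0310 in DESeq2 and 0.0228 in limma, adjusted p = 0.523 and 0.373). Hsp90b1, the HSP90 of the ER, carries the same promoter element but measured 993, 1260 and 1315 CPM in model and 1225, 1144 and 1130 CPM in DMDD liposome. Here the lowest library was model replicate 1 and the 3 DMDD liposome libraries lay within the model range (log2 fold change -0.03 ± 0.14, edgeR adjusted p = 0.972). The FPKM ratio of Hspa5 to Hsp90b1 was therefore 1.23, 0.852 and 0.950 in model and 1.26, 1.14 and 1.32 in DMDD liposome, with model replicate 1 inside the DMDD liposome range.

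The J-domain partners of BiP varied in how far they followed it. Dnajb9 (ERdj4), which directs misfolded proteins to degradation, measured 39.5, 32.2 and 37.1 CPM in model and 56.5, 42.1 and 48.7 CPM in DMDD liposome. The groups did not overlap, with means of 36.3 ± 3.69 and 49.1 ± 7.23 CPM, a 1.35-fold difference and a log2 fold change of 0.44 ± 0.15 (edgeR unadjusted p = 0.0181, adjusted p = 0.626). Dnajc3 (p58IPK), a co-chaperone that also restrains the kinase PERK, measured 172, 128 and 192 CPM in model and 215, 178 and 209 CPM in DMDD liposome. Model replicate 3 lay above DMDD liposome replicate 2, and the log2 fold change was 0.29 ± 0.16 (edgeR adjusted p = 0.700), or 0.13 without model replicate 2. Dnajb11 (ERdj3), which hands unfolded proteins to BiP, measured 70.8, 79.2 and 82.7 CPM in model and 84.1, 102 and 73.0 CPM in DMDD liposome. The groups overlapped through DMDD liposome replicate 3, with a log2 fold change of 0.16 ± 0.14 (edgeR adjusted p = 0.815) that was 0.0127 without DMDD liposome replicate 2. Dnajc10 (ERdj5), a reductase, had a value of 0.05 ± 0.10.

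**Figure D4:**
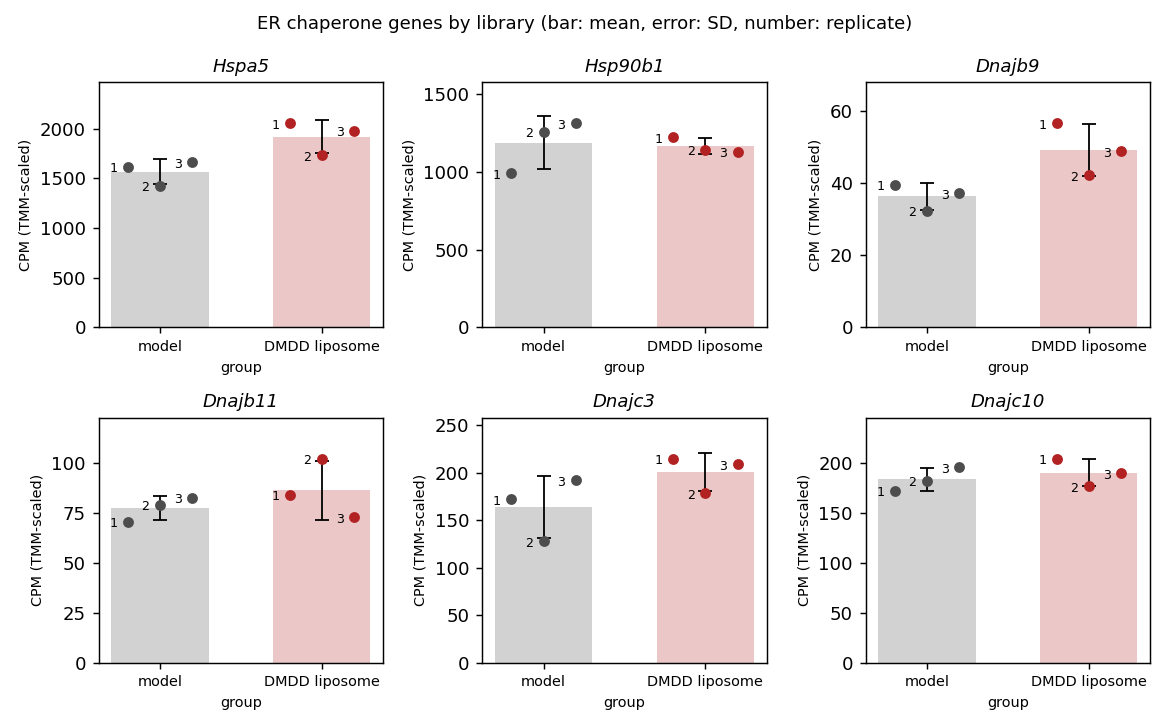
CPM of 6 ER chaperone genes by library; bars are group means from 0, error bars the SD (n = 3), points the libraries with their replicate numbers. Hspa5 and Dnajb9 show no overlap between the groups, Dnajc3 and Dnajb11 overlap, and Hsp90b1 (log2 fold change -0.03) and Dnajc10 (0.05) have nearly equal means.

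Membrane-bound J-domain proteins of the ER split in direction. Dnajb14 measured 46.5, 39.5 and 46.2 CPM in model and 55.7, 63.6 and 45.5 CPM in DMDD liposome (log2 fold change 0.32 ± 0.15, edgeR unadjusted p = 0.0668). Its close relative Dnajb12 measured 52.4, 54.9 and 54.0 CPM in model and 41.4, 49.0 and 49.1 CPM in DMDD liposome, all below model (-0.21 ± 0.11, edgeR unadjusted p = 0.0968). Hspa13, an HSP70 relative of the microsomes, was higher in each DMDD liposome library by a small step (0.10 ± 0.09). Dnajc25, Dnajc1 and Dnajc16 had values of 0.31 ± 0.17, 0.17 ± 0.17 and 0.02 ± 0.12.

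The wider ER folding and unfolded protein response list, 24 genes outside the symbol rule, had 16 genes above 0 and 8 below, with a median of 0.05 and 0 called by edgeR. At an unadjusted p under 0.05 there were 2 (8.33%), both higher, against 7.65% of all genes (4.34% higher). Xbp1, the transcription factor that IRE1 activates, had 181, 195 and 194 CPM in model and 296, 194 and 270 CPM in DMDD liposome. DMDD liposome replicate 2 stayed within the model range while the other libraries of its group were above it (log2 fold change 0.41 ± 0.16, edgeR unadjusted p = 0.0341, adjusted p = 0.629). Syvn1 (HRD1), the ubiquitin ligase of ER-associated degradation, had 58.7, 59.8 and 67.7 CPM in model and 82.4, 71.9 and 72.9 CPM in DMDD liposome with no overlap (0.29 ± 0.11, edgeR unadjusted p = 0.0323, adjusted p = 0.629). In this list the groups did not overlap for 3 genes (12.5%), 2 higher and 1 lower in DMDD liposome, against 12.9% of all genes. Atf6 was the lower one, at 109, 111 and 111 CPM in model and 89.2, 105 and 84.1 CPM in DMDD liposome. Its log2 fold change was -0.25 ± 0.11 (edgeR unadjusted p = 0.0549, adjusted p = 0.644). Ero1l had the lowest log2 fold change of the list, -0.71 ± 0.37, with overlap. Plasma and B cells are rich in Xbp1 and BiP. Of their 10 listed markers, 9 were in the table, and Sdc1, which epithelial tumor cells also express, made up 92.6% to 99.7% of the sum in each library. Sdc1 measured 427, 525 and 680 CPM in model and 308, 499 and 292 CPM in DMDD liposome. The other 8 markers summed to 1.38, 4.26 and 2.63 CPM in model and 8.995, 2.27 and 23.4 CPM in DMDD liposome, with 1 to 4 of them at 0 in a library. Jchain, which joins antibody chains in plasma cells, had 8, 39 and 26 counts in model and 90, 10 and 297 counts in DMDD liposome. DMDD liposome replicates 1 and 3, the libraries highest in Xbp1 and Hspa5, were thus also the highest in Jchain and in the markers other than Sdc1, and lowest in Sdc1; the split by Sdc1 was made after the values were seen. The part of plasma cells in the ER values was not tested.

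Mitochondrial chaperones showed the 2 groups on top of each other. The class median was -0.02, 4 of 10 genes were above 0 and 6 below, and 9 stayed within 0.25 of 0. In this class 0 genes had an unadjusted p under 0.05, against 7.65% of all genes. Summed levels were 990, 1083 and 956 CPM in model and 1005, 1123 and 931 CPM in DMDD liposome. The ranges of the groups overlapped.

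Hspa9, the HSP70 that pulls proteins into the matrix, measured 407, 392 and 348 CPM in model and 348, 430 and 358 CPM in DMDD liposome (log2 fold change -0.01 ± 0.12). Hspd1, the HSP60 barrel, measured 331, 391 and 357 CPM in model and 387, 404 and 318 CPM in DMDD liposome (0.04 ± 0.13). Hspe1, the HSP10 lid of that barrel, measured 74.3, 103 and 69.5 CPM in model and 85.8, 88.1 and 69.3 CPM in DMDD liposome (-0.02 ± 0.18). All 3 overlapped between the groups. Hspd1 and Hspe1 share the promoter stretch printed above, and their FPKM ratio ranged from 1.21 to 1.64 over the 6 libraries.

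Among the mitochondrial J-domain proteins, Dnaja3 (Tid1), the partner of Hspa9, measured 53.2, 51.5 and 53.9 CPM in model and 58.2, 63.2 and 58.4 CPM in DMDD liposome. It was the only gene of the class with no overlap (10%, against 12.9% of all genes). Its log2 fold change was 0.18 ± 0.10 (edgeR unadjusted p = 0.0976, adjusted p = 0.676). Dnajc28 was low, at 1.99, 1.68 and 3.09 CPM in model and 4.32, 2.27 and 3.68 CPM in DMDD liposome, with overlap (0.60 ± 0.38). Dnajc30 had a value of -0.15 ± 0.23, Dnajc19 (a subunit at the import motor) -0.12, Dnajc11 -0.04, Dnajc15 0.05 and Dnajc4 -0.06. In the outside list of 12 mitochondrial folding genes and proteases, 6 were above 0 and 6 below, with a median of -0.01. In that list 0 had an unadjusted p under 0.05, against 7.65% of all genes. The lowest p there belonged to Lonp1, the matrix protease (-0.17 ± 0.09, edgeR unadjusted p = 0.0968), followed by Hscb, a J-domain protein of iron-sulfur cluster assembly (0.26 ± 0.20).

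The CCT chaperonin was the most even family. Its 6 tested subunit genes had log2 fold changes from -0.08 to 0.07, median 0.03, and the groups overlapped for each of them. Their spread over the 6 libraries, as the median SD of log2(CPM + 0.5), was 0.0836, against 0.213 for all genes, 0.144 for the mitochondrial class, 0.191 for the ER class and 0.265 for the cytosolic HSP70, HSP110 and HSP90 class; genes with more reads also have less counting error. Summed CCT levels were 2487, 2576 and 2334 CPM in model and 2409, 2541 and 2480 CPM in DMDD liposome. Cct5 measured 576, 588 and 506 CPM in model and 571, 599 and 587 CPM in DMDD liposome (0.07 ± 0.11). Cct2 measured 500, 531 and 475 CPM in model and 423, 510 and 497 CPM in DMDD liposome (-0.08 ± 0.12), and Cct4 had a value of -0.08 ± 0.10. Mean levels per length ran from 117 FPKM for Cct8 to 308 FPKM for Cct5, although the complex holds its subunits in equal number. Cct6b, a testis form, had 0 to 5 counts and was not tested. Cct6a was on the family list but not among the deposited genes. Tcp1, a subunit of the complex that the symbol rule misses, was counted among the 23 cytosolic co-chaperones and named here after the values were seen. It measured 334, 327 and 359 CPM in model and 304, 304 and 320 CPM in DMDD liposome, all below model (-0.14 ± 0.09, edgeR adjusted p = 0.762).

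The remaining J-domain genes were the 27 Dnaj members not listed under the ER or mitochondria, wherever they reside. Among 24 tested, 3 (12.5%) had an unadjusted p under 0.05, against 7.65% of all genes. Of the 24, 11 were above 0 and 13 below, with a median of -0.02 and 19 within 0.25 of 0. Dnajb4 (HLJ1), a cytosolic HSP40, measured 34.5, 20.4 and 26.3 CPM in model and 35.9, 43.3 and 35.8 CPM in DMDD liposome. The groups were separated by a narrow step at model replicate 1, with means of 27.1 ± 7.09 and 38.3 ± 4.3 CPM and a log2 fold change of 0.50 ± 0.20 (edgeR unadjusted p = 0.0379, adjusted p = 0.632). Without model replicate 1 it was 0.71 (edgeR adjusted p = 0.108; DESeq2 adjusted p = 0.0166 in the added run). Model replicate 1 was the highest model library for Dnajb4, so leaving it out widens the gap by construction. Dnajc18, a membrane-anchored form not listed under the ER here, measured 17.4, 11.9 and 13.9 CPM in model and 21.0, 17.9 and 19.7 CPM in DMDD liposome. Its groups did not overlap (0.44 ± 0.18, edgeR unadjusted p = 0.0415, adjusted p = 0.639). Dnajb13, a J-domain protein of cilia and sperm tails, had 7, 8 and 3 counts in model and 18, 13 and 16 counts in DMDD liposome, with no overlap (1.41 ± 0.49, edgeR unadjusted p = 0.0225, adjusted p = 0.626). Male germ cell markers summed to under 1 CPM in every library, 0.0755 to 0.921 CPM for the 5 of 9 listed genes in the table.

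The best known HSP70 partners of the cytosol did not share these values. Dnajb1 (HSP40), a classical heat shock gene, measured 82.2, 68.3 and 68.5 CPM in model and 67.4, 84.1 and 63.2 CPM in DMDD liposome (log2 fold change -0.03 ± 0.14). Dnaja1 measured 107, 91.4 and 73.4 CPM in model and 124, 105 and 93.6 CPM in DMDD liposome, with overlap (0.25 ± 0.17, edgeR unadjusted p = 0.180). Dnaja2, the highest of the class per length at 60.5 FPKM, had a value of -0.04 ± 0.10. Dnajc8, a splicing-linked protein at 58.5 FPKM, was lower in each DMDD liposome library by a small step (-0.10 ± 0.09). Dnajc27, a small GTPase with a J domain, measured 22.0, 18.2 and 19.0 CPM in model and 15.9, 14.7 and 16.4 CPM in DMDD liposome, all below model (-0.33 ± 0.14, edgeR unadjusted p = 0.0517, adjusted p = 0.644). Dnajb3, Dnajb7 and Dnajc5b had 0 to 6 counts and were not tested.

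The regulators of the system were level. Hsf1, the master factor of the heat shock response, measured 40.5, 47.7 and 43.5 CPM in model and 45.8, 47.1 and 39.5 CPM in DMDD liposome (log2 fold change 0.01 ± 0.12, below 0 without the low-count filter, in DESeq2 and in limma). Hsf2 ran from 19.2 to 22.3 CPM in model and from 18.5 to 25.5 CPM in DMDD liposome (0.10 ± 0.16). Hsf4, best known from the lens, was at 0.451 FPKM (0.39 ± 0.46), and Hsf5 had at most 2 counts. The activity of a heat shock factor is set largely on the protein, which these data do not measure. Among the tested members whose promoter window held GAANNTTC or TTCNNGAA, 11 of 17 were above 0, with a median of 0.06; among those whose window held neither, 28 of 47 were, with a median of 0.03.

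BAG proteins, which release clients from HSP70, had 4 of 6 genes above 0 and a median of 0.05, and all 6 stayed within 0.25 of 0. Bag6, which guards membrane proteins on their way to the ER, measured 347, 306 and 310 CPM in model and 271, 274 and 292 CPM in DMDD liposome. Each DMDD liposome library was below each model library (log2 fold change -0.20 ± 0.10, edgeR unadjusted p = 0.0828, adjusted p = 0.666). Bag3, a heat shock gene of selective autophagy, measured 68.0, 73.4 and 96.3 CPM in model and 68.2, 74.9 and 78.7 CPM in DMDD liposome (-0.10 ± 0.15). Bag1, the highest of the family per length at 124 FPKM, had a value of 0.03 ± 0.12. Bag2, an inhibitor of the ligase CHIP, and Bag5, an exchange factor, had values of 0.15 ± 0.15 and 0.20 ± 0.16. Hspbp1, which also exchanges nucleotide on HSP70, measured 43.8, 55.5 and 41.2 CPM in model and 49.3, 57.2 and 50.1 CPM in DMDD liposome (0.16 ± 0.14), and Hspbap1, a partner of Hspb1, had a value of -0.07 ± 0.21.

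Set beside each other, the compartments had ratios of summed CPM (DMDD liposome over model) of 0.975 for the cytosolic HSP70, HSP110 and HSP90 class, 1.12 for the ER and 1.01 for mitochondria, with 1.004 for CCT. The cytosolic sums did not overlap between the groups, while the ER, mitochondrial and CCT sums did. The sums are led by single genes: Hsp90ab1 (72.1%), Hspa5 (47.5%), Hspa9 (37.5%) and Cct5 (23.1%). The difference between compartments itself was not tested. Gene by gene, the 3 members with the ER stress element had log2 fold changes of 0.29 (Hspa5), 0.29 (Dnajc3) and -0.03 (Hsp90b1).

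**Figure D5:**
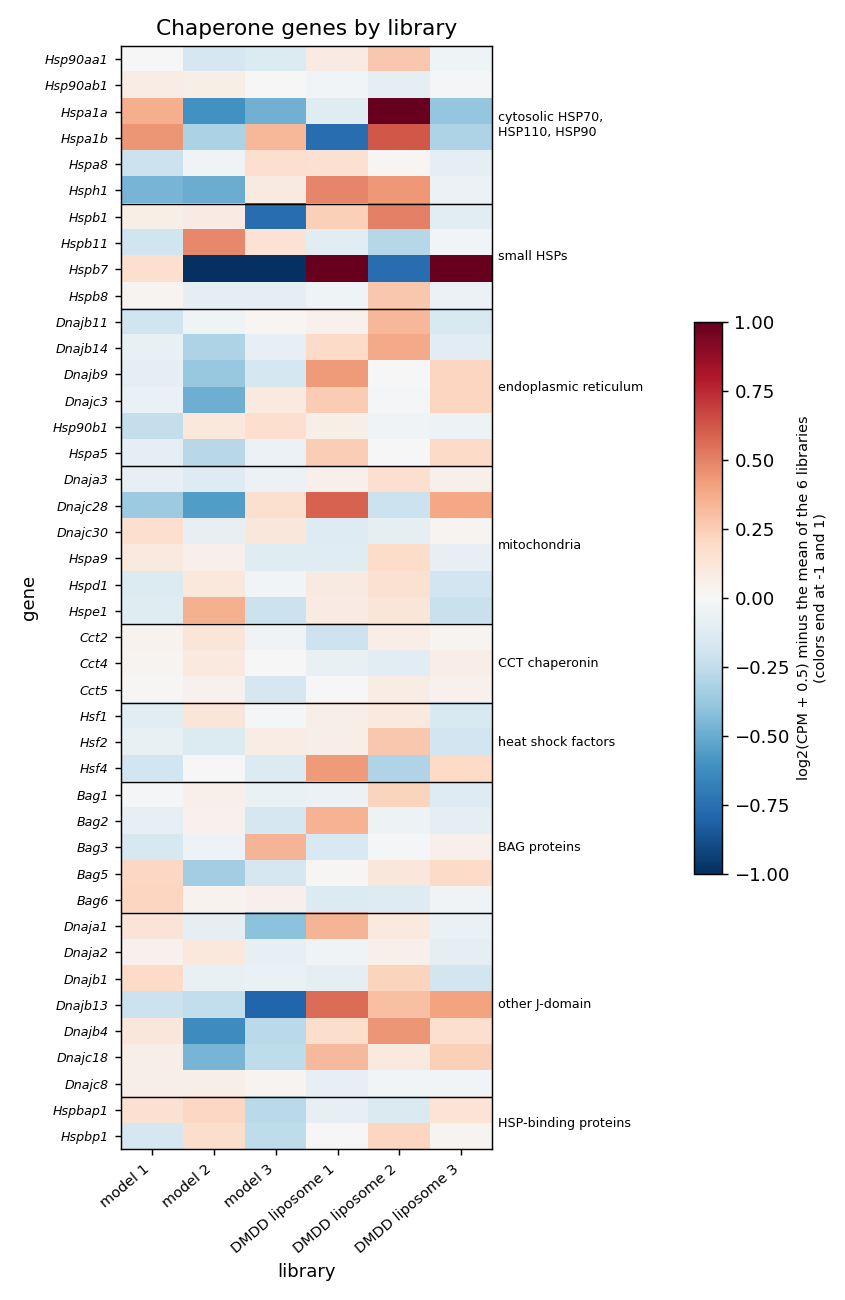
Log2(CPM + 0.5) of the members chosen by the naming rule, minus the mean of the 6 libraries, by library (columns) and family (rows); red is above and blue below the mean, and colors end at -1 and 1. Hspa5 and Dnajb9 are above the model libraries in each DMDD liposome library, and the CCT rows are nearly blank. Hspa1a and Hspa1b are high in DMDD liposome replicate 2 and model replicate 1, and Hspa1b, but not Hspa1a, is also high in model replicate 3.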

How the data were processed

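Per the labels' protocols, tumor RNA was isolated with Trizol and an NEBNext Ultra kit was used for the 6 libraries. The authors deposited one table of read counts per gene, a normalized signal (each count divided by a size factor per library), FPKM, and log2 fold changes of model over DMDD liposome with p-values, per the file headers. The submitters' processing notes name DESeq2 and build mm9; the aligner, counter, annotation and strandedness (not given in the sources used here) leave overlapping genes uncertain.

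The main test on the counts was run with edgeR 4.0.16 in R 4.3.3: filterByExpr (minimum count 10, minimum total 15; 12891 genes tested, 3872 not), TMM, the two-sided quasi-likelihood test over all 6 libraries, Benjamini-Hochberg adjustment over all genes and a threshold of 0.05. Fold changes are DMDD liposome over model, the reverse of the authors' direction, with standard errors taken from the F statistic. For 16705 of 16736 genes, the p from DESeq2 1.42.0 came within 1% of the authors' value. Alternatives were DESeq2 (also with its size factors in edgeR), no filter, limma 3.58.1 (voom with quality weights), a replicate block and each library left out. Deviations from the group mean (log2 CPM) correlated at 0.0876, 0.114 and 0.121 between same-numbered libraries of the 2 groups. Between libraries with different numbers they correlated at -0.164 to 0.0316. The labels give no pairing, so the numbers were not taken as pairs in the main test.

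Genes named were, per class, the 3 with the smallest p and the 2 with the highest FPKM, standard textbook members, and 2 of each outside list; any others were named after their values were seen. Members and lists were chosen with earlier results of these data known. Promoters came from RefSeq (GRCm38.p6) and transcripts from GENCODE M21, matched by symbol only. Protein sequences were not used here, so the planned protein motif search was not run.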

Additional observations from a re-analysis of the deposited data

How the results depend on the processing

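No member was called under any edgeR or limma setting. Over all genes, DESeq2 called 59, edgeR with a library left out 0 to 112 (112 without model replicate 1), and DESeq2 with a library left out, added after the data were seen, 867 without model replicate 1, 30 and 18 without model replicates 2 and 3, and 20, 128 and 87 without DMDD liposome replicates 1, 2 and 3. In that series 2 members were called, Hspb7 and Dnajb4, only without model replicate 1. Among the model libraries both genes were highest in that library, so its removal widens their gaps by construction. Members with an unadjusted p under 0.05 numbered 0 to 8 of 81 with a library left out (0% to 9.88%, against 3.66% to 16.3% of all genes; 2 and 3 without model replicates 2 and 3, 0 and 3 without DMDD liposome replicates 1 and 3). Members whose groups do not overlap numbered 16 to 25 of 81 (19.8% to 30.9%, against 17.3% to 34.1% of all genes), which fewer samples raise by construction (25 without model replicate 1, 20 without model replicate 3, 20 and 25 without DMDD liposome replicates 2 and 3).

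The median log2 fold change of the small heat shock proteins was 0.28 with no filter and 0.29 in DESeq2. With a library left out, medians ran from -0.0041 to 0.0761 for all members, 0.1 to 0.23 for the ER, -0.0836 to 0.0688 for mitochondria, -0.026 to 0.21 for heat shock factors, 0.00163 to 0.0836 for BAG proteins, -0.0565 to 0.12 for the cytosolic HSP70, HSP110 and HSP90 class, -0.0212 to 0.0641 for CCT, -0.0835 to 0.15 for HSP-binding, -0.0275 to 0.0223 for other J-domain and 0.0832 to 0.23 for small heat shock proteins. Named genes near 0 changed sign: Hsf1 was -0.0102 with no filter, -0.0023 in DESeq2 and -0.0162 in limma, and Bag1 -0.0229 in limma. With a library left out, the ranges that crossed 0 were -0.0896 to 0.10 for Bag1, -0.00587 to 0.23 for Bag2, -0.20 to 0.0516 for Bag3, -0.13 to 0.00354 for Cct2, -0.00357 to 0.11 for Cct5, -0.17 to 0.0652 for Dnajb1, -0.0493 to 0.0804 for Hsf1, -0.026 to 0.21 for Hsf2, -0.14 to 0.0375 for Hsp90b1, -0.0821 to 1.07 for Hspa1a, -0.71 to 0.0443 for Hspa1b, -0.0453 to 0.14 for Hspa8, -0.12 to 0.0426 for Hspa9, -0.00366 to 0.17 for Hspb8, -0.23 to 0.0116 for Hspbap1, -0.0373 to 0.13 for Hspd1 and -0.15 to 0.17 for Hspe1. Dnajb11 (0.0127 to 0.27), Dnajc3 (0.13 to 0.41), Hspa5 (0.22 to 0.36), Dnajb9 (0.32 to 0.53), Hsph1 (0.47 to 0.78), Dnajb4 (0.33 to 0.71), Dnajc18 (0.31 to 0.60), Dnajb13 (1.06 to 1.62) and Hspb7 (1.81 to 4.13) stayed above 0. With the replicate number as a block, 0 genes and 0 members were called. There, 8 members had an unadjusted p under 0.05, against 6 without the block. In deviations from the group mean, every library correlated best with the other library of its own number, a hint from the data, not the design. Genes under 10 counts in a library, such as Dnajb13 in model and Hspb7 in model replicates 2 and 3, are limited by depth.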
